A study of Mus musculus with 6 samples.

Results

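The 9 genes described here encode proteins that start, restrain or stabilise blood clotting, or that dissolve clots: F3, Tfpi, Thbd, Procr, F13a1, Plau, Plat, Plaur and Serpine2. They were found by exact match of these symbols in a table of 35999 gene symbols, and all 9 were present and passed the filter on low values. The libraries are labelled primary mouse hepatic stellate cells, pericytes that store vitamin A in the liver and turn into matrix-producing myofibroblasts in culture. There were 2 libraries each on day 1, day 4 and day 7, with no treatment named in the labels. The sources used here do not give strain, sex, age, the event from which days were counted or whether both libraries of a day are separate animals, so the p-values below measure the spread between libraries, which may be technical. Values are TPM, transcript abundance scaled for length and library size, of ribosomal RNA-depleted total RNA, and means are given ± SD over the 2 libraries of a day (n = 2).

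Coagulation starts when tissue factor, the product of F3, binds factor VII on a cell surface. The enzymes that follow end in thrombin, which cuts fibrinogen into fibrin, and factor XIII then cross-links the fibrin. Tissue factor pathway inhibitor blocks the first step, while thrombomodulin and the endothelial protein C receptor hand thrombin over to the activation of protein C, an anticoagulant. Fibrin is removed by plasmin, made from plasminogen by urokinase (Plau) and tissue plasminogen activator (Plat), and both activators are inhibited by serpins. Quiescent stellate cells lie outside the endothelium of the sinusoid, near endothelial cells and Kupffer cells. Thrombin and plasmin both act on stellate cells and on the matrix they deposit.

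The libraries carried RNA of several liver cell types. The 14 stellate cell and myofibroblast markers summed to 2029 to 2200.3 TPM on days 4 and 7, against 193 to 241 TPM on day 1. Of the 14, 4 were under 1 TPM in both day 1 libraries. Among these 4, Lrat, the retinol-esterifying enzyme of stellate cells, was at 0.491 and 0.496 TPM on day 1, and Ngfr was under 1 TPM in all 6 libraries. Other markers of the list were present on day 1, such as Dcn at 110 TPM and Pdgfra at 16.2 TPM. Reln was at 11.1 TPM on day 1 and 9.52 TPM on day 7. The 13 macrophage and Kupffer cell markers summed to more in every library, 23698 to 26091 TPM on days 4 and 7, against 9140 to 11533 TPM on day 1. Which of these cells carried the transcripts below was not tested. The 11 liver endothelial markers summed to 2115 to 2343 TPM in all 6 libraries. In bulk RNA, fewer cells of a type cannot be told apart from less RNA per cell. A group of 12 gene models with pericentromeric satellite sequence took at most 0.0913% of the TPM total on days 4 and 7, against 17.4% and 26.2% in the day 1 libraries, which lowers the day 1 TPM of every other gene. Without these models the median log2 change of all tested genes for day 4 against day 1 was -0.22, against 0.11 as deposited, and no direction is drawn from changes of about that size. The depth of the libraries is unknown, because TPM keeps no record of it.

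The 9 genes differed in their time courses, which the plot of TPM by library shows. F3 and F13a1 were higher on each later day, Plau, Plat, Tfpi and Serpine2 were higher on day 4 and then stayed within 1.26-fold, and Procr was lower from day 4 on. Plaur and Thbd moved least against day 1 as deposited. This order depends on the scale. With TPM rescaled without the satellite-like models, the log2 change on day 4 against day 1 was -0.81 for Plaur, -0.52 for Thbd and 0.27 for Plau. Of all 14373 tested genes, 36.6% were called at an adjusted p under 0.05 by limma between day 4 and day 1 (25.0% higher, 11.6% lower), and of the 9 genes 6 were called higher and 2 lower. Between day 7 and day 4, 0.466% of all tested genes were called (0.306% higher, 0.160% lower), and of the 9 genes 2 were called higher and none lower. Between day 7 and day 1 the share was 41.4% (24.7% higher, 16.8% lower), with 6 of the 9 genes higher and 1 lower. F13a1 lay under 1 TPM in both day 1 libraries and passed the filter only through the later days, so its call is no independent part of these counts. The moderated F test over the 3 days called 37.2% of all tested genes and 7 of the 9, all but Plaur (adjusted p = 0.0633) and Thbd (adjusted p = 0.132). The 3 comparisons share libraries, so their results for a gene are not independent of each other.

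**Figure D1:**
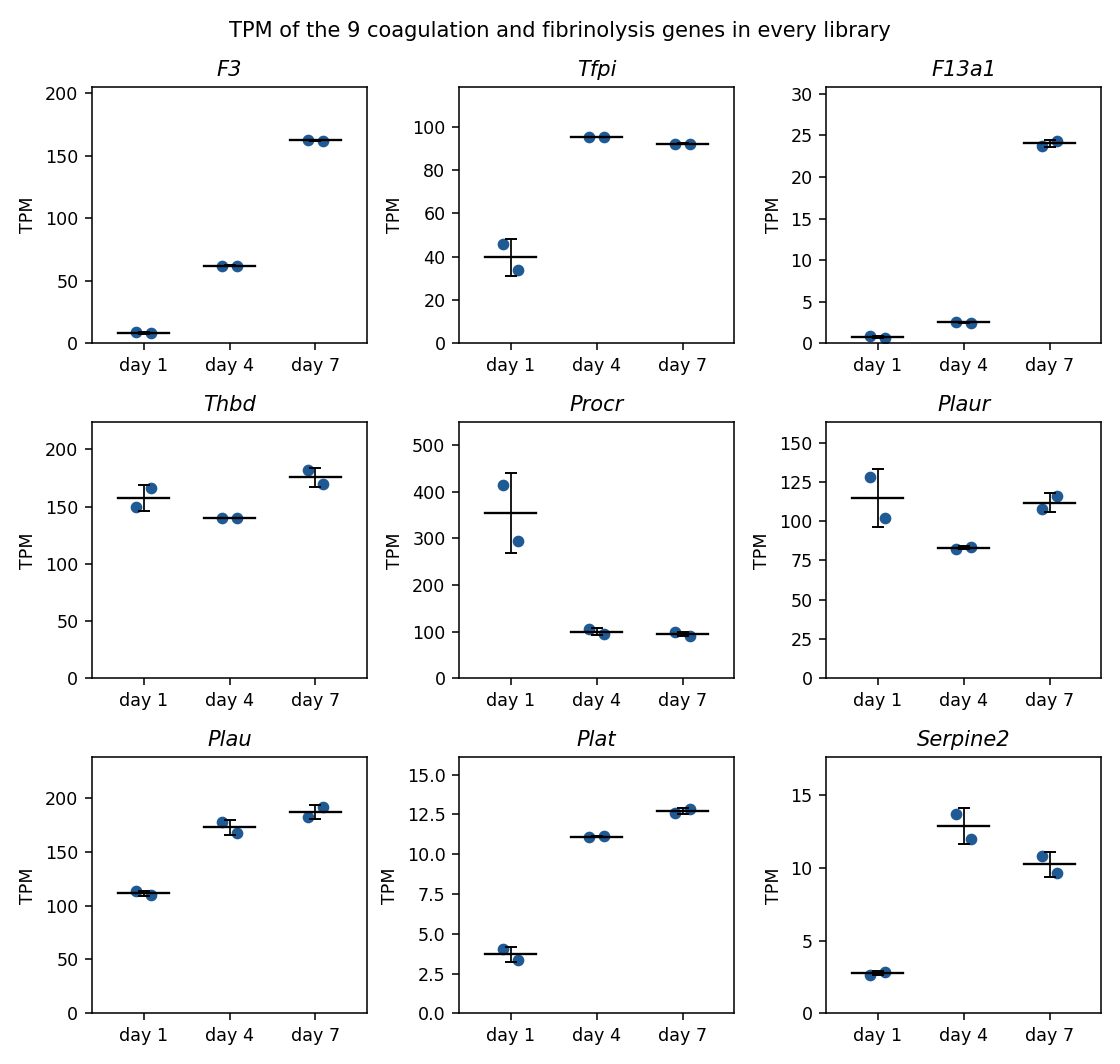
TPM of each of the 9 genes (vertical axis, linear and starting at 0) on days 1, 4 and 7, with 1 point per library, the mean of the 2 libraries as a bar and the SD as an error bar. F3 reaches 162 TPM and F13a1 24.1 TPM on day 7, while Procr is highest on day 1 at 354 TPM.

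**Figure D2:**
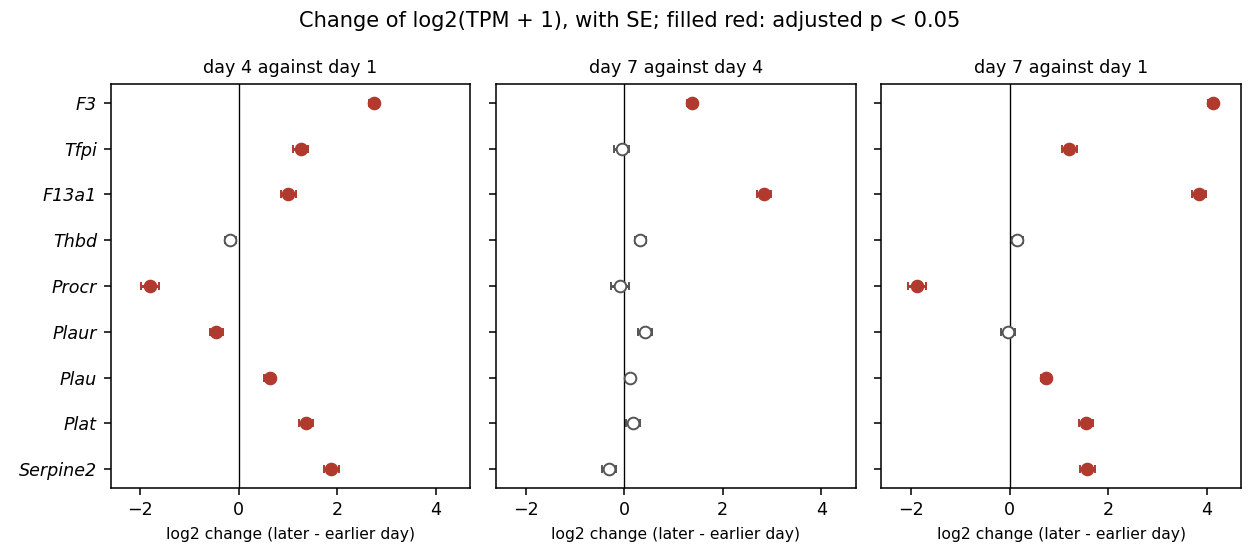
Change of log2(TPM + 1) for each gene, later minus earlier day, with its standard error, in the 3 comparisons of days. Filled red points passed an adjusted p of 0.05, and between day 7 and day 4 these were F3 (1.38) and F13a1 (2.84).

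Upstream sequence is shown for F3, F13a1 and Procr, the genes with the largest increases and the largest decrease. RefSeq promoter windows (GRCm38.p6) were held for 6 of the 9 genes: F3, F13a1, Procr, Plaur, Tfpi and Serpine2. The sequences run 5′ to 3′ on the strand of the gene and end at the base before the annotated start, and for Procr before the earlier of the RefSeq and GENCODE starts. They lie at chr3:121723287-121723536 on the plus strand for F3, at chr13:37050245-37050494 on the minus strand for F13a1 and at chr2:155750967-155751116 on the plus strand for Procr. Capitals mark matches to 8 motifs searched on both strands.
F3: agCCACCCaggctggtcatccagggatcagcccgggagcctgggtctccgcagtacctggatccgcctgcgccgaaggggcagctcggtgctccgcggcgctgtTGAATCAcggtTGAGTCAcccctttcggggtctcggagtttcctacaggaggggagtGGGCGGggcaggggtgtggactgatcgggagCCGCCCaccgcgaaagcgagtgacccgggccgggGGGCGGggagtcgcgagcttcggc
F13a1: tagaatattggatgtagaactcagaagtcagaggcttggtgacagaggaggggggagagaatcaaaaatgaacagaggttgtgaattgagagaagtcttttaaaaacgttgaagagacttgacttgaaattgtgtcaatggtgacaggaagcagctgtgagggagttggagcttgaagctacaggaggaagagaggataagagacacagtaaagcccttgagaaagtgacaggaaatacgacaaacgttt
Procr: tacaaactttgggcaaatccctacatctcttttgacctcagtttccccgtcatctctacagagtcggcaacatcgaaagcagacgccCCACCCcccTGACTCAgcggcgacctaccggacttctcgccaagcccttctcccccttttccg

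The motifs were AP-1 (TGANTCA), TEAD (GGAATG), the GC box (GGGCGG), KLF (CCACCC), EGR (GCGNGGGCG, which can share bases with a GC box), the E-box (CACGTG), the TATA box (TATAAA) and an ISRE-like pattern of 2 GAAA words with 2 bases of any kind between them. The 250 bases before the F3 start held 2 AP-1 matches, 146 and 135 bases before the start, as well as 3 GC boxes and 1 KLF match. The Procr window held 1 AP-1 match, 154 bases before the RefSeq start, and 1 KLF match. No match to any of the 8 motifs was in the F13a1 window at the gene start, and a second F13a1 window, further along the gene, held 2 KLF matches. Of 32851 RefSeq windows of this length, 6.75% held an AP-1 match, 32.7% a GC box, 28.1% a KLF match, 12.6% a TEAD match, 12.4% a TATA box, 6.02% an E-box, 4.697% an EGR match and 2.98% the ISRE-like pattern. Plaur held 1 AP-1 match, 3 GC boxes and 1 EGR match, Serpine2 held 6 GC boxes and 1 EGR match, and each of the 2 Tfpi windows held 1 GC box, with a TATA match in the upstream window. These matches describe letters and not occupied sites.

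F3, which encodes tissue factor, had the largest change on the log2(TPM + 1) scale over the whole course. By fold of mean TPM, F13a1 rose more, 32.5-fold on day 7 against day 1. F3 lies on chromosome 3 from 121723537 to 121735048 (GRCm38, plus strand, GENCODE M21), with 4 annotated transcripts and no overlapping gene. F3 was at 8.82 and 7.89 TPM in the day 1 libraries, 61.4 and 62.0 TPM in the day 4 libraries, and 163 and 162 TPM in the day 7 libraries. Every library of a later day lay above every library of an earlier day. F3 rose to 61.7 ± 0.40 TPM on day 4, against 8.36 ± 0.65 TPM on day 1, which is 7.38-fold and a log2 change of 2.75 (SE 0.10, limma adjusted p = 2.86e-05). It rose again to 162 ± 0.64 TPM on day 7, against 61.7 ± 0.40 TPM on day 4, a 2.63-fold difference and a log2 change of 1.38 (SE 0.10, limma adjusted p = 0.0143). On day 7 against day 1 the change was 19.4-fold (log2 change 4.13, SE 0.10, limma adjusted p = 9.74e-06). The call of day 7 against day 4 was lost without either day 4 library or either day 7 library (limma adjusted p = 0.222 to 0.346) and with no filter on low values (adjusted p = 0.0611), while the change itself lay between 1.37 and 1.39 in those fits. By its mean TPM, F3 stood at percentile 38.5 of the tested genes on day 1, 83.0 on day 4 and 94.3 on day 7.

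Tfpi encodes tissue factor pathway inhibitor, the main brake on tissue factor, and lies on chromosome 2 from 84432855 to 84476775 on the minus strand. It was at 45.7 and 33.7 TPM on day 1, 95.4 and 95.2 TPM on day 4, and 92.0 and 92.3 TPM on day 7. Both day 1 libraries lay below all 4 later libraries, and the later libraries differed little. Tfpi rose 2.40-fold on day 4 against day 1 (log2 change 1.26, SE 0.15, limma adjusted p = 0.00187), and its change from day 4 to day 7 did not pass the test (log2 change -0.05, SE 0.15, adjusted p = 0.965).

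Since F3 went on rising where Tfpi did not, the ratio of F3 to Tfpi TPM within a library was 0.193 and 0.235 on day 1, 0.644 and 0.651 on day 4, and 1.77 and 1.75 on day 7. A ratio within a library does not depend on the share of TPM that other transcripts take. The 3 days do not overlap in this ratio, and F3 was the more abundant transcript only in the day 7 libraries. With 2 libraries against 2, no exact permutation test of a ratio can give a two-sided p below 0.333, so the ratios here are given without a test. The related inhibitor gene Tfpi2, which is not among the 9, was at 7.12 ± 2.3 TPM on day 1, 24.6 ± 0.69 TPM on day 4 and 49.5 ± 1.2 TPM on day 7, and it rose on day 4 (log2 change 1.69, limma adjusted p = 0.00166) but its further change to day 7 missed the test (log2 change 0.98, adjusted p = 0.132).

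Procr was the only one of the 9 to fall by more than 1 on the log2 scale. It encodes the endothelial protein C receptor, which presents protein C to thrombin and thrombomodulin, and it lies on chromosome 2 from 155751117 to 155755471 on the plus strand. Procr was at 415 and 294 TPM on day 1, 105 and 94.8 TPM on day 4, and 98.3 and 91.1 TPM on day 7. Both day 1 libraries lay above all later ones, although they differed from each other by 1.41-fold, the widest gap between libraries of a day among the 9 genes. Procr fell to 100.02 ± 7.4 TPM on day 4, against 354 ± 85 TPM on day 1, a log2 change of -1.80 (SE 0.18, limma adjusted p = 0.000916), and the day 7 and day 4 libraries overlapped (log2 change -0.08, adjusted p = 0.950). It made up 10.5% to 15.3% of the summed TPM of the 9 genes in the later libraries, against 47.8% and 40.9% in those of day 1.

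Thbd, the gene of thrombomodulin, the thrombin receptor that works with Procr, did not follow it. Thbd is a single-exon gene on chromosome 2 from 148404466 to 148408188 on the minus strand. It was at 149 and 166 TPM on day 1, 140.3 and 139.8 TPM on day 4, and 182 and 170 TPM on day 7. The days did not overlap, but the differences were small and none passed the test as deposited (log2 change -0.17 for day 4 against day 1, adjusted p = 0.279, and 0.32 for day 7 against day 4, adjusted p = 0.343, by limma). Thbd was called lower on day 4 with TPM rescaled without the satellite-like models (-0.52, limma adjusted p = 0.0242) and without day 1 replicate 2 (log2 change -0.24, limma adjusted p = 0.0320). It was called higher on day 7 without day 1 replicate 3, both against day 1 (limma adjusted p = 0.0458) and against day 4 (adjusted p = 0.0496), and higher against day 4 when only those days were fitted (adjusted p = 0.0476). The ratio of Thbd to Procr was 0.360 and 0.564 on day 1, 1.33 and 1.48 on day 4, and 1.85 and 1.86 on day 7, so Procr was the more abundant transcript only on day 1.

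Beside Procr, Thbd and Tfpi, which endothelial cells are known to express, the endothelial markers did not move as a group. Of 11 tested, 5 rose and 2 fell on day 4 against day 1, beside 25.0% and 11.6% of all tested genes. The junction gene Cdh5 was lower on day 4, at 162 TPM against 506 TPM on day 1 (log2 change -1.60), and the sialomucin gene Emcn was higher, at 188 TPM against 14.0 TPM (log2 change 3.66), and it rose again to 400 TPM on day 7. Of 8 mesothelial markers, 3 passed the filter only through the later days. Of the other 5 markers 3 rose and none fell on day 4 against day 1, beside the same shares of all tested genes. The list summed to 65.4 to 109 TPM on days 4 and 7, against 22.2 to 26.1 TPM on day 1. The part of either cell type in the changes of Procr, Thbd and Tfpi was not tested.

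F13a1 rose late. It encodes the catalytic A subunit of factor XIII, the transglutaminase that cross-links fibrin, and it is known as a gene of macrophages, monocytes and megakaryocytes. It lies on chromosome 13 from 36867178 to 37050244 on the minus strand, where the models Gm49144 and Gm30489 overlap it on the other strand, and since no source used here gives the use of strand in quantification, reads of these could have been counted with it. F13a1 was at 0.803 and 0.679 TPM on day 1, 2.52 and 2.48 TPM on day 4, and 23.8 and 24.4 TPM on day 7. The days did not overlap, and the step to day 7 was the larger. F13a1 was 9.63-fold higher on day 7, at 24.1 ± 0.41 TPM, against 2.50 ± 0.024 TPM on day 4 (log2 change 2.84, SE 0.15, limma adjusted p = 0.00664). Without any of the 4 libraries of those days the change lay between 2.82 and 2.86 but missed the test (adjusted p = 0.0576 to 0.300). F13a1 also rose on day 4 against day 1, by 1.01 on the log2 scale (SE 0.15, limma adjusted p = 0.00375), which ranged from 0.39 with a pseudocount of 5 TPM to 1.63 with one of 0.1 TPM because its level was low.

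Among the markers of cells known to express F13a1, none of the 13 macrophage and Kupffer cell markers was called between day 7 and day 4. Only 0.466% of all tested genes were called between these days, so the lack of calls among so few markers says little. The 13 markers summed to 24062 and 26091 TPM on day 7 against 23698 and 23734 TPM on day 4. Of the 5 tested monocyte markers 1 was called higher and none lower between these days, while Ly6c2 and Chil3 were under 1 TPM in both day 7 libraries. Of the 6 platelet and megakaryocyte markers, Gp1bb was at 0 in all 6 libraries and Gp9 and Treml1 were under 1 TPM throughout. Ppbp was at 7.84 TPM on day 1, 0.680 TPM on day 4 and 1.75 TPM on day 7. Itga2b was at 1.70, 1.85 and 2.27 TPM on these days. Pf4 was at 960 ± 227 TPM on day 1, 460 ± 23 TPM on day 4 and 769 ± 86 TPM on day 7. Its change from day 4 to day 7 did not pass the test (log2 change 0.74, limma adjusted p = 0.228). Which cells the F13a1 RNA came from was not tested.

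The urokinase gene Plau was the most abundant of the 9 on days 4 and 7. Urokinase is a secreted serine protease that turns plasminogen into plasmin at the cell surface. Its gene is on chromosome 14 from 20836660 to 20843385 on the plus strand. Plau was at 113 and 110 TPM on day 1, 177 and 168 TPM on day 4, and 182 and 192 TPM on day 7. The later libraries all lay above those of day 1. Plau rose 1.55-fold on day 4 against day 1 (log2 change 0.63, SE 0.11, limma adjusted p = 0.00651), but not once TPM was rescaled without the satellite-like models (0.27, adjusted p = 0.0631), nor without day 4 replicate 1 (adjusted p = 0.0806) or replicate 2 (adjusted p = 0.0619). On day 7 against day 1 Plau was called as deposited (log2 change 0.74, limma adjusted p = 0.00300) and also once rescaled (0.39, limma adjusted p = 0.0199).

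Plat, the gene of tissue plasminogen activator, which works best on plasminogen bound to fibrin, was far less abundant. It lies on chromosome 8 from 22757727 to 22782844 on the plus strand. Plat was at 4.02 and 3.37 TPM on day 1, 11.08 and 11.12 TPM on day 4, and 12.6 and 12.9 TPM on day 7. The 4 later libraries lay above both day 1 libraries. Plat rose 3.00-fold on day 4 against day 1 (log2 change 1.37, SE 0.14, limma adjusted p = 0.000925), and its change to day 7 did not pass the test (log2 change 0.18, adjusted p = 0.729). The ratio of Plau to Plat was 28.2 and 32.5 on day 1, 16.0 and 15.1 on day 4, and 14.4 and 14.9 on day 7, so Plau outnumbered Plat in every library and by less on the later days.

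Plaur encodes the urokinase receptor, which holds urokinase on the cell surface and is abundant on macrophages and other myeloid cells, and it lies on chromosome 7 from 24462484 to 24475968 on the plus strand. It was at 128 and 102 TPM on day 1, 82.4 and 83.7 TPM on day 4, and 108 and 116 TPM on day 7. The day 4 libraries were the lowest, and those of days 7 and 1 overlapped. The fall on day 4 against day 1 was close to the threshold (log2 change -0.45, SE 0.14, limma adjusted p = 0.0433). It was lost in 7 of the 16 alternatives, among them the fits without day 4 replicate 1, day 4 replicate 2, day 7 replicate 1 or day 7 replicate 2 (limma adjusted p = 0.0938 to 0.190), and with TPM rescaled without the satellite-like models it was larger (-0.81, adjusted p = 0.00261). The change to day 7 from day 4 missed the test (log2 change 0.42, adjusted p = 0.300 by limma) but passed it without either day 1 library (adjusted p = 0.0362 and 0.0350). The ratio of Plau to Plaur was 0.884 and 1.08 on day 1, 2.15 and 2.00 on day 4, and 1.69 and 1.65 on day 7. Of the 13 macrophage markers, 11 were called higher and none lower on day 4 against day 1 as deposited, beside 25.0% and 11.6% of all tested genes. The part of macrophages in the level of Plaur was not tested.

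Serpine2 encodes protease nexin 1, a serpin that inhibits thrombin, urokinase and tissue plasminogen activator. Its gene spans 79794197 to 79861180 on chromosome 1, minus strand, with 6 annotated transcripts. Serpine2 was at 2.65 and 2.86 TPM on day 1, 13.7 and 11.98 TPM on day 4, and 10.8 and 9.62 TPM on day 7. Both day 1 libraries lay far below the later 4. Serpine2 rose 4.66-fold on day 4 against day 1 (log2 change 1.88, SE 0.15, limma adjusted p = 0.000348), and its lower level on day 7 than on day 4 did not pass the test (log2 change -0.30, adjusted p = 0.517).

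The summed TPM of Plau and Plat over that of Serpine2 was 44.1 and 39.6 on day 1, 13.7 and 14.9 on day 4, and 17.9 and 21.3 on day 7. Both activators together exceeded this serpin in every library, by less on the later days than on day 1.

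**Figure D3:**
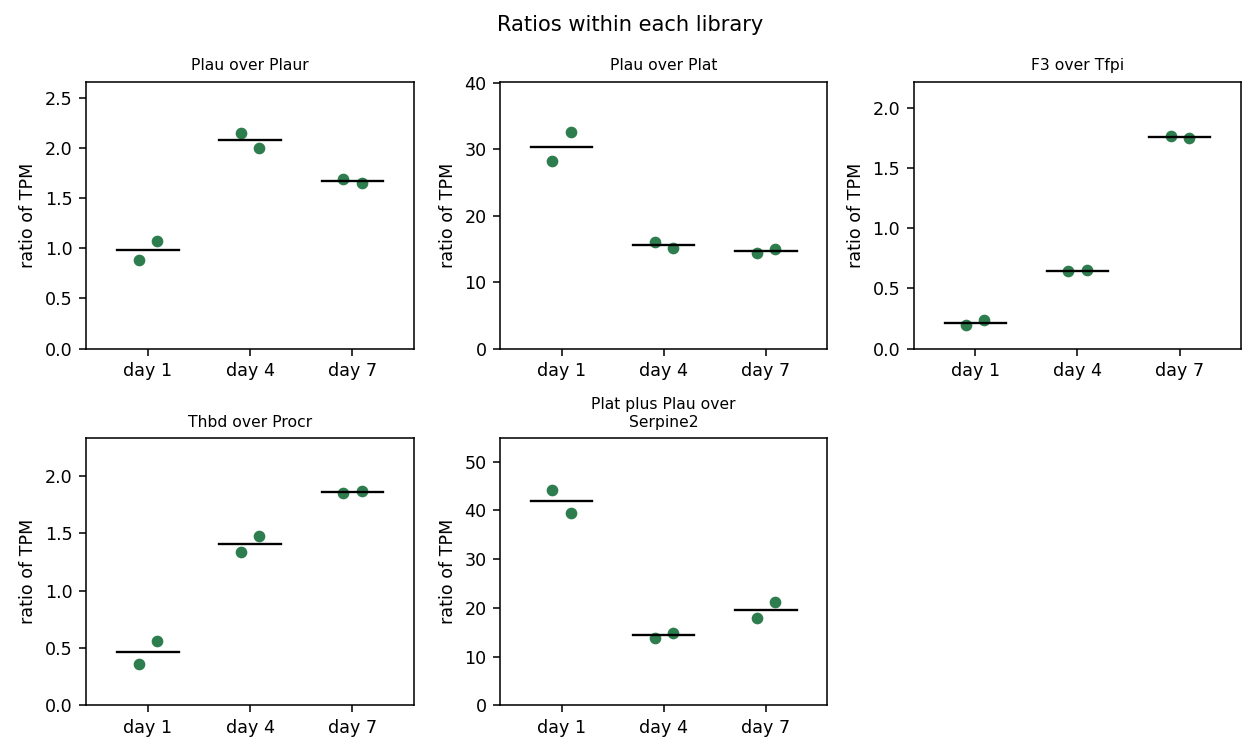
Ratios of TPM within each library (vertical axis, linear from 0) on days 1, 4 and 7, with 1 point per library and the mean as a bar. F3 over Tfpi reaches 1.76 on day 7, and the 2 plasminogen activators over Serpine2 lie between 17.9 and 21.3 on day 7, against 39.6 and 44.1 on day 1.

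The order of the 9 genes by TPM, which is per transcript length and so can be compared between genes, changed between days. On day 1 it ran Procr, Thbd, Plaur, Plau, Tfpi, F3, Plat, Serpine2 and F13a1. On day 4 it ran Plau, Thbd, Procr, Tfpi, Plaur, F3, Serpine2, Plat and F13a1, and on day 7 Plau, Thbd, F3, Plaur, Procr, Tfpi, F13a1, Plat and Serpine2. Neighbours whose libraries overlapped were Plaur and Plau on day 1, Procr and Tfpi on day 4, and Procr and Tfpi on day 7. The summed TPM of the 9 genes was 867 and 720 on day 1, 690 and 669 on day 4, and 871 and 869 on day 7. Thbd made up 17.2% to 23.0% of the sum in all 6 libraries, while F3 took 1.02% and 1.10% on day 1, 8.91% and 9.27% on day 4, and 18.6% in both day 7 libraries. The 2 libraries of a day differed by a median of 1.18-fold over the 9 genes on day 1, 1.01-fold on day 4 and 1.05-fold on day 7.

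The rest of the system was described with 5 lists of 51 other genes, of which 31 were tested. On day 4 against day 1, 17 of the 31 rose and 7 fell, with a median log2 change of 0.61 against 0.11 for all tested genes, of which 25.0% rose and 11.6% fell. Of the 31, Fga, Fgg and Cpb2 passed the filter only through day 1 and Proz only through the later days. On day 7 against day 4 only F10 was called, against 0.466% of all tested genes. The counts per list below are to be read against the same shares. With TPM rescaled without the satellite-like models, the counts for day 4 against day 1 were 12 higher and 7 lower. The shares above belong to the reported fit and do not apply to this count or to rescaled counts below. After that rescaling, more of all tested genes were called lower than higher. Leaving out a library also changed the counts.

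Most coagulation factors made by hepatocytes were near 0. Of 16 factor and fibrinogen genes, 10 did not pass the filter, and F2, the prothrombin gene, was under 1 TPM in every library. The fibrinogen chain gene Fgg fell to 0.112 TPM on day 4, against 1.53 TPM on day 1 (log2 change -1.17), and Fga fell likewise (log2 change -1.04). Both reached 1 TPM only on day 1 and so passed the filter through that day alone, as did 5 of the 6 tested hepatocyte markers. The hepatocyte markers summed to 1.80 to 5.01 TPM on days 4 and 7, against 44.7 to 54.2 TPM on day 1. F8, the factor VIII gene, which liver endothelial cells are known to make, rose to 52.2 TPM on day 4, against 28.7 TPM on day 1 (log2 change 0.85, limma adjusted p = 0.00361). F10, the factor X gene, first fell (log2 change -0.90, limma adjusted p = 0.0133) and then rose to 11.6 and 12.3 TPM on day 7, against 1.83 and 2.42 TPM on day 4 (log2 change 2.06, SE 0.19, limma adjusted p = 0.0274). Leaving out any library of day 4 or day 7 ended that later call.

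In the list of anticoagulant proteins and their relatives, 3 of 6 tested genes were higher and 1 lower on day 4 against day 1. Their median log2 change was 0.47. Gas6, a vitamin K-dependent ligand related to protein S, rose to 71.8 TPM, against 15.8 TPM on day 1 (log2 change 2.11), and the phospholipid-binding Anxa5 rose by 0.70 on the log2 scale. Serpinc1, the antithrombin gene, fell to 0.950 TPM, against 4.20 TPM on day 1. Pros1, the protein S gene, was at 207 TPM on day 4 and 176 TPM on day 1, and the difference did not pass the test (log2 change 0.24, limma adjusted p = 0.210).

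Among plasminogen and the inhibitors of fibrinolysis 3 of 6 tested genes rose and 3 fell. Of the 3 that fell, Cpb2 passed the filter only through day 1, so its fall is no independent part of this count. A2m, a broad protease inhibitor gene, rose to 24.8 TPM on day 4, against 1.72 TPM on day 1 (log2 change 3.26), and Serping1, the C1 inhibitor gene, rose by 2.30 on the log2 scale. Serpinb8 (log2 change -1.39), Cpb2, the carboxypeptidase that protects fibrin (-1.26), and Serpinb2, the gene of plasminogen activator inhibitor 2 (-0.88), fell. Plg, the plasminogen gene itself, was listed at 0 in all 4 later libraries, against 0.805 and 0.633 TPM on day 1.

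Of 10 genes of receptors for plasmin, thrombin and protease complexes 7 were tested, of which 6 rose and none fell, with a median log2 change of 0.88. Plgrkt, a plasminogen receptor gene, missed the test (log2 change 0.33, limma adjusted p = 0.0799). The protease-activated receptor genes F2rl1, F2rl2 and F2rl3 did not pass the filter, and their day 4 means of 0.355, 0.437 and 0.365 TPM lay below their day 1 means of 0.582, 0.651 and 0.584 TPM. Anxa2 and S100a10, whose products form a plasminogen-binding complex, were at 425 TPM and 304 TPM on day 4, against 135 TPM and 99.6 TPM on day 1 (log2 changes 1.66 and 1.63). Mrc2, a collagen receptor gene, rose to 5.30 TPM, against 0.794 TPM (log2 change 1.83), and Lrp1, which clears protease and serpin complexes, rose by 0.88. F2r, the main thrombin receptor gene, rose to 140 TPM, against 89.5 TPM (log2 change 0.66, limma adjusted p = 0.0363). After rescaling without the satellite-like models 3 of the 7 rose. Of 6 genes of the vitamin K cycle and of factor export 4 rose and none fell, led by the reductase gene Vkorc1 (log2 change 1.33), and 2 rose after that rescaling. Beside all these groups, all 13 tested stellate cell and myofibroblast markers rose, although Lrat, Lox and Hand2 passed the filter only through the later days, and their part was not tested.

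**Figure D4:**
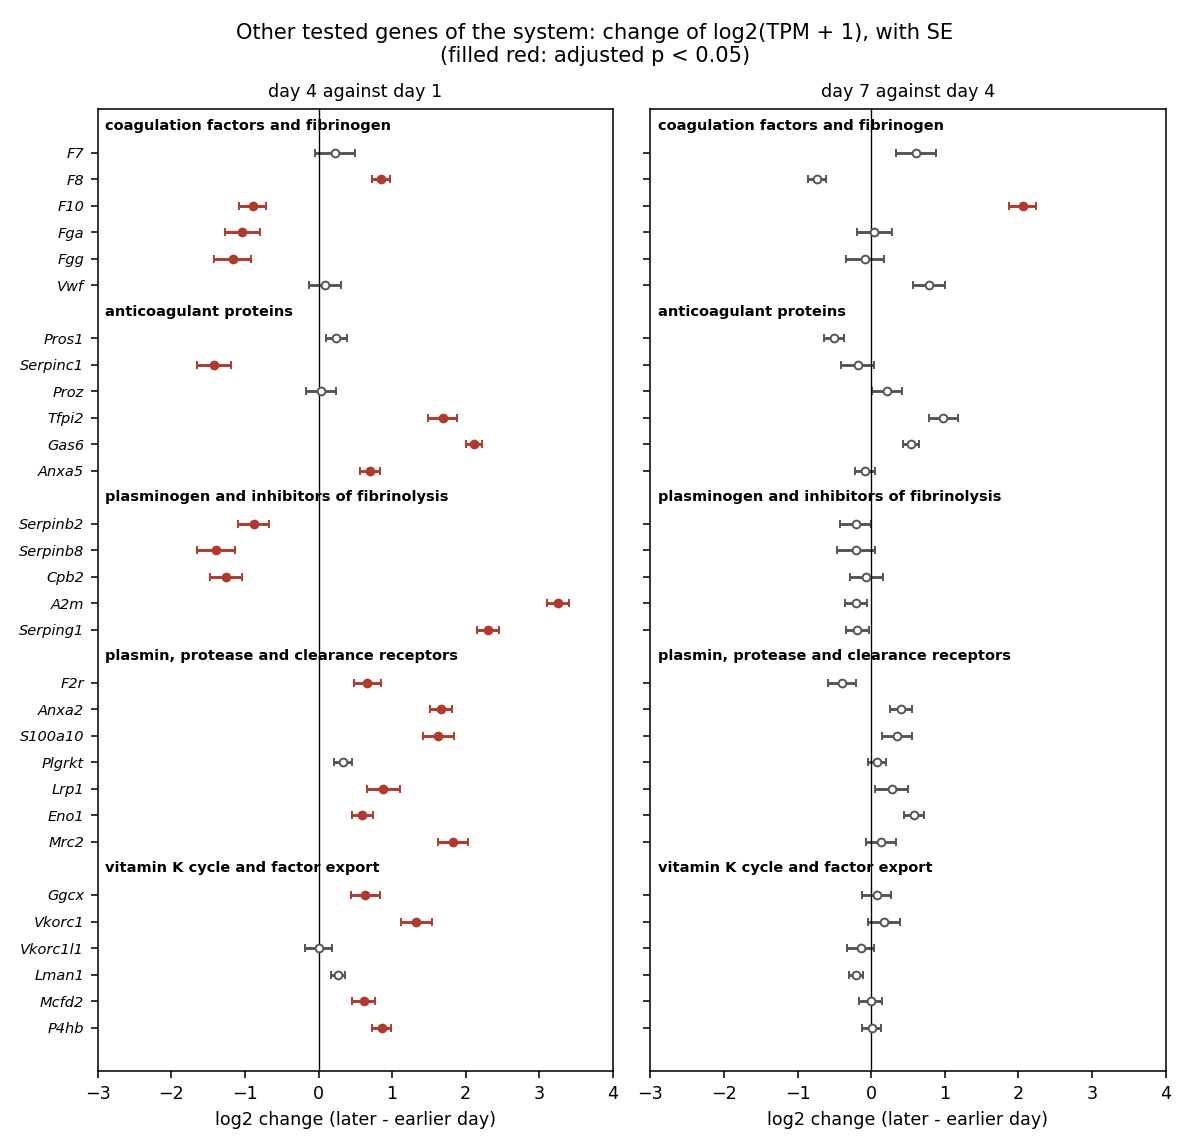
Change of log2(TPM + 1), later minus earlier day, with its standard error, for 30 of the 31 tested genes of the 5 lists, on day 4 against day 1 and on day 7 against day 4. Filled red points passed an adjusted p of 0.05, 23 of them on day 4 against day 1 and only F10 (2.06) on day 7 against day 4.

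For each of the 9 genes the most similar profiles were sought among 9954 genes with a mean of at least 5 TPM, as the smallest root mean square distance between log2(TPM + 1) profiles over the 6 libraries, each centred on its own mean. Nearest to F3 were Aldoc (distance 0.0469), Ivl (0.143) and Cnn1 (0.195), and Aldoc was at 0.652 TPM on day 1, 9.84 TPM on day 4 and 27.9 TPM on day 7. F13a1 had no near neighbour: the closest were Spp1 (0.479), Zranb3 (0.492) and Sorbs2 (0.493), and Spp1, the osteopontin gene, was at 26.7, 121 and 648 TPM on days 1, 4 and 7. Procr lay closest to Ifi35 (0.0617), Upp1 (0.104) and Gbp2 (0.105), with Ifi35 at 168, 47.6 and 47.3 TPM on the same days. The closest gene to Plat was Ptgs1 (0.0384), to Plau Kctd11 (0.0332), to Plaur Tead2 (0.0615), to Serpine2 Mfge8 (0.0771), to Tfpi Bckdha (0.0187) and to Thbd Uhrf1bp1 (0.0354). With 6 libraries on 3 days such distances describe these libraries only.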

How the data were processed

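The authors deposited 1 table of TPM for each symbol in 6 libraries. The submitters' processing notes name Trimmomatic, HISAT2 2.0.5, StringTie 1.3.3b and the builds mm10 and GRCm38. The sources used here give no annotation, use of strand or summing of transcripts. TPM holds no counts, so depth and counting error are unknown. The 14373 genes that reached 1 TPM in 2 or more libraries were fitted as log2(TPM + 1), which understates changes of low genes, with limma 3.58.1 in R 4.3.3: day as a factor, a variance trend, robust moderation, 3 residual degrees of freedom, and Benjamini-Hochberg adjustment over all tested genes. The fit was run on simulated data with independent normal noise, of the same spread on all days, and no shift in TPM shares. It therefore cannot vouch for calls against day 1, whose libraries carried such a shift. Satellite-like models were those with 10% or more of their 20-base words found in Gm10800 (GENCODE M21). Members, lists and alternatives were chosen with earlier results of these data known. From each list of other genes up to 4 called genes were to be named for day 4 against day 1 and 2 for day 7 against day 4, by size of change; Pros1, F2, Plg, F2r, F2rl1, F2rl2, F2rl3, Plgrkt, Proz, Cpb2, Serpinb2 and single marker genes were named after their values were seen. Alternatives were other pseudocounts, filters, scalings and variance models, leaving out each library, a replicate block, and fits of only the days compared. A planned comparison of protein sequences was not made, and single genes of the lists are counted but not reported here. Figures used matplotlib 3.10.9.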

Additional observations from a re-analysis of the deposited data

How the results depend on the processing

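F3, Plat, Serpine2 and Tfpi were called higher, and Procr lower, on day 4 and on day 7 against day 1 under all 16 alternatives to the reported fit. F13a1 was called higher in the same way. It lay under 1 TPM in both day 1 libraries and passed the filter only through the later days, so its calls against day 1 are no independent support. For day 4 against day 1, the 2 lower calls among the 9 genes became 1 with no filter, with only the days compared and with the plain variance model, and 1 to 3 when a library was left out. For day 7 against day 1 the 1 lower call became 2 after rescaling without the satellite-like models. For day 7 against day 4 the 2 higher calls became 1 with no filter, 4 with only the 2 days compared, and 0 to 4 without a library, with 0 whenever a library of day 4 or 7 was left out; such fits leave 1 library on a day, which is assumed to vary like the others, and call 0 to 2 genes higher in the whole table. Signs turned for uncalled values: Plaur on day 7 against day 1 (-0.03) ranged from -0.19 to 0.13 when a library was left out, with 0.13 without day 1 replicate 2 and 0.024 without day 7 replicate 1, Tfpi on day 7 against day 4 became 0.021 after median-ratio scaling, and Thbd on day 7 against day 1 (0.16) became -0.0036 after quantile normalization and -0.20 without the satellite-like models, where Plaur was called lower (-0.38).

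Among the 31 other genes, the 17 higher and 7 lower calls of day 4 against day 1 became 10 to 19 and 2 to 7 without a library, with 2 lower at a mean of at least 5 TPM. The 18 higher and 6 lower calls of day 7 against day 1 became 12 to 20 and 3 to 7, with 1 lower at a mean of at least 5 TPM. The 1 higher and 0 lower calls of day 7 against day 4 became 0 to 6 and 0 to 3, with 0 higher with no filter, and 6 higher and 3 lower with only the days compared. Same-numbered libraries did not deviate together (correlation of deviations 0.00423 between days 4 and 7, 0.067 between days 1 and 4, -0.056 between days 1 and 7), and the fit with the number as a replicate block left the counts of the 9 genes as they were in each comparison of days and gave 4 lower calls on day 4 against day 1 and 0 higher on day 7 against day 4 among the other genes.

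Over the whole table, rescaling without the satellite-like models turned 3590 higher and 1667 lower calls on day 4 against day 1 into 2060 and 3468, and fits of only the days compared turned 44 and 23 calls on day 7 against day 4 into 265 and 344; at an unadjusted p under 0.05 there were 1705. With 1 TPM added to each value, Plau over Plat became 24.0, 14.3 and 13.7 on days 1, 4 and 7, and activators over Serpine2 became 31.2 and 13.4 on days 1 and 4. The cause of these shifts was not tested.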
